A study of Mus musculus with 12 samples.

Results

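The 10 genes described here encode the machinery with which an olfactory sensory neuron turns an odorant into an electrical signal: Omp, Gnal, Cnga2, Cnga4, Cngb1, Adcy3, Ano2, Gng13, Stoml3 and Rtp1. They were chosen by name out of the 23358 genes of the count table, with their values in these samples already known, and all 10 were found in it. Messenger RNA was sequenced from mouse frontal bone, taken on postnatal day 3 in a dissection that also included the nasal bone and 2 sutures (coronal and frontonasal). The mice were wild type or carried 1 copy of the Fgfr2 C342Y allele (FGFR2-C342Y/+, which models the early fusion of skull sutures in Crouzon syndrome), on the C57BL/6 or the BALB/c background. Each of the 4 groups held 3 samples: C57BL/6 wild type replicates 1, 2 and 3, C57BL/6 mutant replicates 4, 5 and 6, BALB/c wild type replicates 13, 14 and 15, and BALB/c mutant replicates 16, 17 and 18. The labels do not say whether samples came from separate or pooled animals, so the p-values measure the spread between these samples, which may be technical. A count table does not show the allele, so the genotype labels could not be checked with it.

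In the main olfactory epithelium, odorant receptors reach the cilia of the neuron with the help of the chaperone RTP1. An activated receptor acts through the G protein Golf (alpha subunit Gnal, with gamma subunit Gng13) on adenylyl cyclase 3 (Adcy3), and the cyclic AMP made opens a cation channel of Cnga2, Cnga4 and Cngb1 subunits. Calcium entering through it opens the chloride channel ANO2, which amplifies the current. OMP is the classic marker of the mature neuron, and STOML3 is a stomatin family protein of its cilia. The nasal bone, which was part of the dissection, lies over the lining that holds these neurons.

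The libraries held 27181658 to 46521546 counts in genes. Every count was even and was read as 2 counts per read pair, and a floor of 3 read pairs corresponds to 0.129 to 0.225 CPM (counts scaled to library size, with the trimmed mean of M-values). Run identifiers in the labels show 1 flow cell for all C57BL/6 libraries and another for all BALB/c libraries, so strain and flow cell cannot be told apart. Summed over 6 genes, osteoblast markers ranged from 61690 to 141400 CPM and were abundant in every library of this bone tissue. C57BL/6 mutant replicate 4 stood apart from the other 2 libraries of its group for most of the genes below, and the comparisons of the 10 genes, their partners and the transcription factors that use it are also given without it.

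The upstream sequences of the 3 channel subunit genes are shown because these genes encode parts of 1 channel and their RNA levels moved together across the samples. Each run is the 250 bases before the RefSeq transcript start (GRCm38.p6), written 5′ to 3′ on the strand of the gene, with CpG dinucleotides in capitals. Cnga2 lies on the plus strand at chrX:71991599-71991848, Cnga4 on the plus strand at chr7:105404318-105404567 and Cngb1 on the minus strand at chr8:95306586-95306835.
Cnga2: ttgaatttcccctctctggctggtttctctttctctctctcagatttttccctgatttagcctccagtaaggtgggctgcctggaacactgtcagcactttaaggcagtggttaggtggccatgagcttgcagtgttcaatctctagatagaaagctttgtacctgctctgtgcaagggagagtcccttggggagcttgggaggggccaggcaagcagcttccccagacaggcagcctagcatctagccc
Cnga4: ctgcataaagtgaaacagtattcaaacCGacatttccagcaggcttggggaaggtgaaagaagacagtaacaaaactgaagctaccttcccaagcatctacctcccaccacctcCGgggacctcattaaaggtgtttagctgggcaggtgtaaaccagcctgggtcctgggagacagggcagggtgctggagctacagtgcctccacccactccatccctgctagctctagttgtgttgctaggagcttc
Cngb1: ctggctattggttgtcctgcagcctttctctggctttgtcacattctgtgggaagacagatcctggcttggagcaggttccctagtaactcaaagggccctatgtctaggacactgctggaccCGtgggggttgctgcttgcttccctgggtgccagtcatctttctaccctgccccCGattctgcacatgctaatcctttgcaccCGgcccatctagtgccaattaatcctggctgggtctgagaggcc
These windows hold 0, 2 and 3 CpG dinucleotides, against a median of 6 over all 32851 RefSeq promoter windows. Of the 10 genes, 7 were matched in the RefSeq table, with 11 windows in all. Adcy3, whose RNA did not follow the others, has 27 CpG dinucleotides and 68.8% GC in its first window, a number that 92.4% of all windows equal or fall below. That window holds 250 GENCODE exon bases, counted over all genes, and the Ano2 window with 12 CpG dinucleotides holds 200. The windows of the 3 channel subunit genes hold 0, so exon and upstream sequence are set side by side here. The first windows of Stoml3, Gng13 and Ano2 hold 2, 2 and 8 CpG dinucleotides, and the alternative windows hold 12 and 4 for Ano2, 25 for Gng13 and 6 for Adcy3, so CpG content did not separate Adcy3 from every window of the other genes. The core of the Olf-1/EBF site (TCCC and GGGA parted by any 2 bases) and the homeodomain core TAATTA, searched on both strands of the windows from 250 bases before to 50 bases after the start, were in 0 of the 11 windows. Over all windows, 0.904% hold the first and 5.29% the second. The count depends on the pattern: the shorter inner core CCCNNGGG (N is any base), searched after seeing the data and contained in the longer one, was in 5 of the 11 windows (1 each of Cnga2, Cnga4, Cngb1, Ano2 and Gng13), against 13.7% of all windows. A match is not a site, and the lack of a match says only that these letters are not in these windows.

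RNA of 9 of the 10 genes was high in 4 libraries, the 3 C57BL/6 wild type libraries and C57BL/6 mutant replicate 4, and low in the other 8. Those 8 were C57BL/6 mutant replicates 5 and 6 and all 6 BALB/c libraries. Adcy3 was the exception, abundant in all 12. The split was read from the values of these genes, and the share of all genes that divide the libraries this way is not given here. In bulk tissue, fewer cells of a type and less RNA per cell cannot be told apart, and this holds for every level below.

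**Figure D1:**
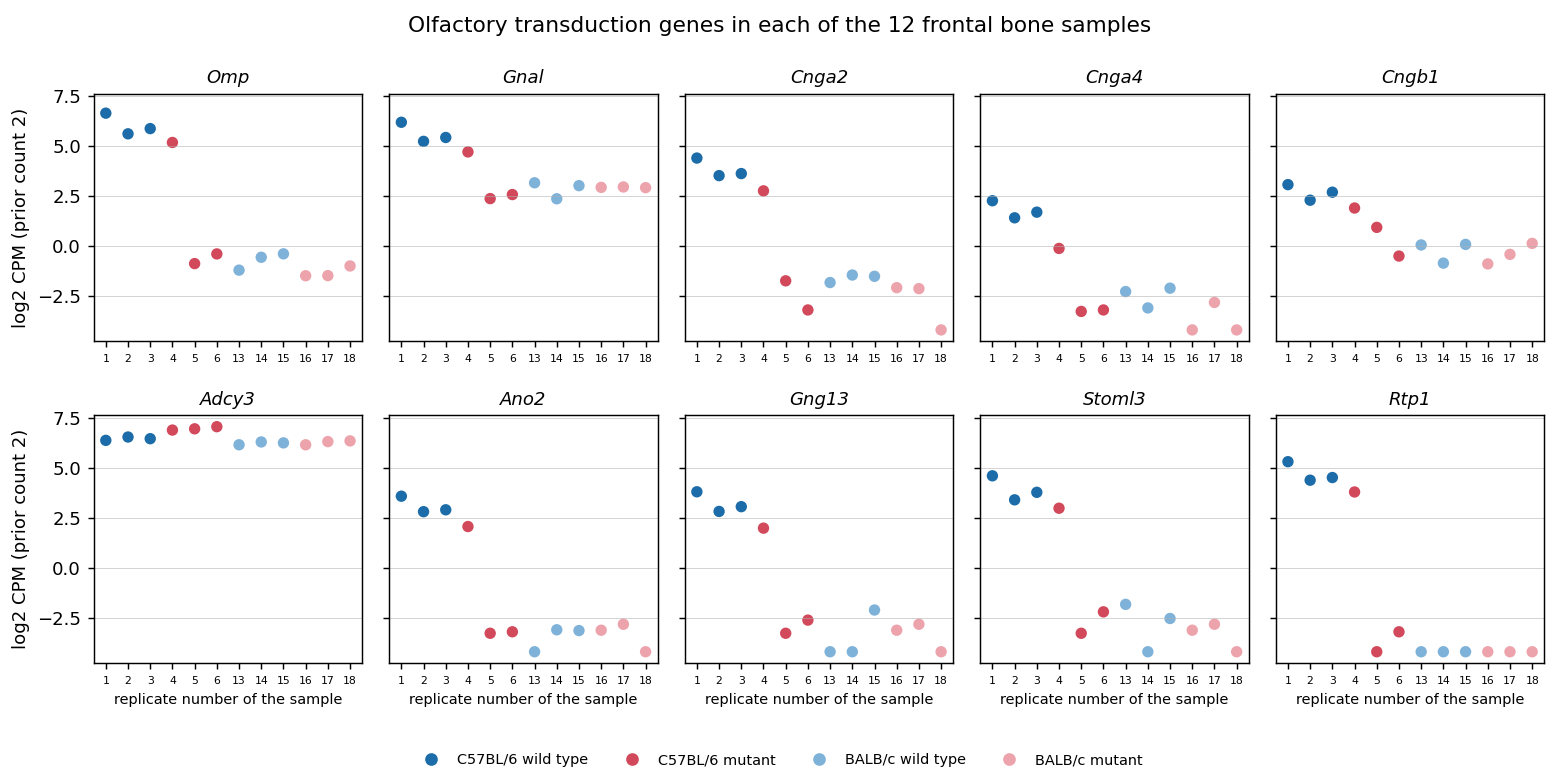
Level of each of the 10 genes in each sample, as log2 CPM with a prior count of 2 (vertical axis), by replicate number of the sample (horizontal axis), coloured by group. For 9 genes replicates 1 to 4 lie above the 8 others, and Adcy3 is abundant in all 12 samples and highest in the C57BL/6 mutant ones.

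Omp, the marker of mature olfactory neurons, separated the libraries by a wide margin. Its 3 C57BL/6 wild type libraries held 99.97, 48.8 and 58.5 CPM, a mean of 69.1 ± 27.2 (SD, n = 3). The 3 C57BL/6 mutant libraries, replicates 4, 5 and 6 in that order, held 36.1, 0.485 and 0.701 CPM. Replicate 4 was therefore at 52.3% of the wild type mean, and the other 2 mutant libraries lay near the floor. BALB/c wild type libraries held 0.376, 0.618 and 0.703 CPM, and BALB/c mutant libraries 0.300, 0.301 and 0.443 CPM. The lowest C57BL/6 wild type library was 69.4 times the highest of the 8 low libraries. Omp (GRCm38, chromosome 7, 98143359 to 98145447) is a gene of 1 exon inside Capn5 on the same strand, and the 2 share 0 exon bases in GENCODE vM21. Capn5 itself did not follow the pattern, at 18.1 ± 0.237 CPM in C57BL/6 wild type and 19.6 ± 1.19 CPM in C57BL/6 mutant libraries (SD, n = 3 each).

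Stoml3 (chromosome 3, 53488793 to 53507652), which encodes the stomatin-like protein of olfactory cilia, had 24.2, 10.5 and 13.6 CPM in the C57BL/6 wild type libraries, a mean of 16.1 ± 7.20 (SD, n = 3). Mutant replicates 4, 5 and 6 held 7.82, 0.0485 and 0.162 CPM. The 6 BALB/c libraries ran from 0 to 0.225 CPM, so every low library was at or below 3 read pairs. Replicate 4 stood at 48.5% of the wild type mean.

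Rtp1 (chromosome 16, 23429133 to 23433960), the chaperone that carries odorant receptors to the cell surface, was the gene most completely missing from the low libraries. It had 1522, 690 and 850 counts in the C57BL/6 wild type libraries, or 39.5, 20.8 and 22.8 CPM. Replicates 4, 5 and 6 of the C57BL/6 mutants had 610, 0 and 2 counts. All 6 BALB/c libraries had 0 counts, which allows up to 3 read pairs in each. Against that floor per library, the C57BL/6 wild type mean was at least 141-fold higher than BALB/c wild type and at least 181-fold higher than BALB/c mutant. The C57BL/6 mutant mean was at least 30-fold higher than BALB/c mutant, and that bound rests on replicate 4, since replicates 5 and 6 were themselves under the floor. These floors cover counting error only.

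Gnal (chromosome 18, 67088336 to 67226791), the alpha subunit of Golf, followed the same libraries on top of a base level present everywhere. Its levels were 72.9, 37.5 and 42.9 CPM in C57BL/6 wild type, a mean of 51.1 ± 19.1 (SD, n = 3). Replicates 4, 5 and 6 held 25.98, 5.09 and 5.87 CPM. The 6 BALB/c libraries held 5.06 to 8.87 CPM, far above the floor, and overlapped C57BL/6 mutant replicates 5 and 6. Gnal shares 852 exon bases with Mppe1 on the opposite strand in GENCODE vM21, and the strand setting of the counting is not given in the sources used here, so reads from that stretch cannot be assigned to either gene. Mppe1 held 9.59 ± 0.599 CPM in C57BL/6 wild type and 15.3 ± 0.864 CPM in BALB/c wild type (SD, n = 3 each), the opposite direction to Gnal.

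Gng13 (chromosome 17, 25717172 to 25719102), the gamma subunit that pairs with Golf, had 13.9, 6.99 and 8.26 CPM in C57BL/6 wild type libraries. Mutant replicates 4, 5 and 6 held 3.89, 0.0485 and 0.108 CPM, and the 6 BALB/c libraries 0 to 0.176 CPM. Only replicate 4 among the 9 other libraries was above 3 read pairs. Gng13 shares 397 exon bases with the opposite-strand gene Chtf18, at 15.4 ± 1.48 CPM in C57BL/6 wild type, 9.39 ± 0.613 in C57BL/6 mutant, 14.1 ± 0.429 in BALB/c wild type and 14.8 ± 1.17 in BALB/c mutant libraries (SD, n = 3 each).

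The 3 subunits of the cyclic nucleotide-gated channel differed in how near the floor they lay in the low libraries. Cnga2 (chromosome X, 71991875 to 72010218), the principal pore subunit, had 20.99, 11.4 and 12.2 CPM in C57BL/6 wild type libraries, a mean of 14.9 ± 5.32 (SD, n = 3). Mutant replicates 4, 5 and 6 held 6.69, 0.243 and 0.0539 CPM, and BALB/c libraries 0 to 0.309 CPM. The wild type C57BL/6 libraries did not overlap any other group.
Cnga4 (chromosome 7, 105404568 to 105408738), a modulatory subunit, had 4.73, 2.59 and 3.16 CPM in C57BL/6 wild type libraries. Replicates 4, 5 and 6 held 0.859, 0.0485 and 0.0539 CPM, and BALB/c libraries 0 to 0.176 CPM. Replicate 4 was at 24.6% of the wild type mean for Cnga4, the lowest share among the 10 genes. It rests on 38 counts, or 19 read pairs.
Cngb1 (chromosome 8, 95239043 to 95306585), the beta subunit that rod photoreceptors also use, had 8.31, 4.82 and 6.38 CPM in C57BL/6 wild type libraries. Replicates 4, 5 and 6 held 3.66, 1.84 and 0.647 CPM, and BALB/c libraries 0.480 to 1.03 CPM. Replicate 5 thus lay between the high and the low libraries for this gene. The rod channel subunit Cnga1 had 0 counts in all 12 libraries, and 6 rod markers summed to 0.977 to 2.09 CPM.

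Ano2 (chromosome 6, 125690419 to 126040128), the calcium-activated chloride channel of olfactory cilia, had 11.9, 6.93 and 7.40 CPM in C57BL/6 wild type libraries, a mean of 8.74 ± 2.74 (SD, n = 3). Mutant replicates 4, 5 and 6 held 4.11, 0.0485 and 0.0539 CPM. BALB/c libraries held 0 to 0.0861 CPM, which is at most 2 read pairs in any of them. The C57BL/6 wild type libraries were again apart from all others, and replicate 4 was the nearest to them.

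Adcy3 (chromosome 12, 4133397 to 4213524), the cyclase of the cascade, had 83.0, 93.2 and 87.97 CPM in C57BL/6 wild type, a mean of 88.1 ± 5.10 (SD, n = 3). In C57BL/6 mutant replicates 4, 5 and 6 it had 118.7, 124.0 and 133.5 CPM, a mean of 125.4 ± 7.50. The mutant libraries lay above all wild type libraries of the strain, and replicate 4 was with its group here. BALB/c wild type libraries held 71.2, 78.6 and 76.1 CPM, and BALB/c mutant libraries 71.2, 79.5 and 81.5 CPM, which overlapped. Adcy3 shares 1221 exon bases with Cenpo on the opposite strand, and Cenpo held 8.58 ± 0.763 CPM in C57BL/6 wild type and 8.51 ± 0.822 CPM in C57BL/6 mutant libraries (SD, n = 3 each), about the same in both.

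**Figure D2:**
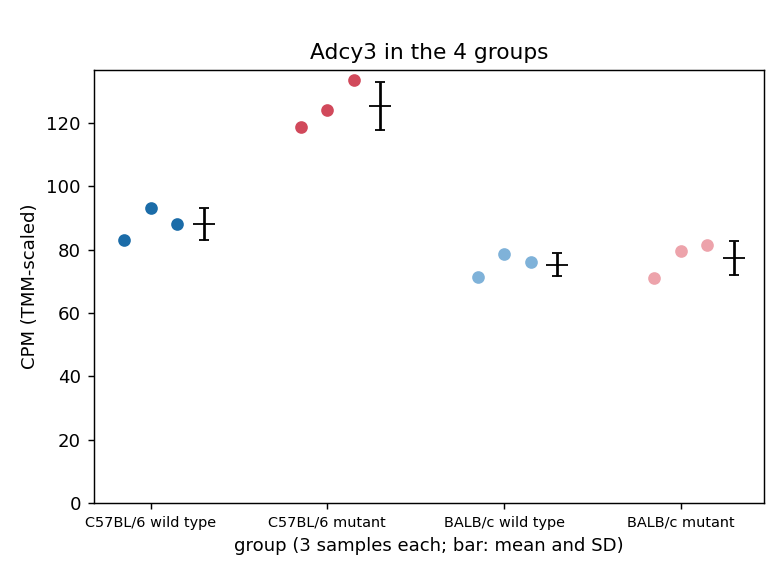
Adcy3 in CPM (vertical axis, from 0) in the 4 groups, with 1 point per sample and the mean and SD of 3 samples beside it. The C57BL/6 mutant samples lie between 118.7 and 133.5 CPM, above the 9 others.

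Per kilobase of the deposited coding length, which allows levels of different genes to be compared, Omp was the highest of the 10 in C57BL/6 wild type libraries, at a mean of 33.1 CPM per kb. Gng13 followed at 23.4, Stoml3 and Adcy3 at 18.6 each, Rtp1 and Gnal at 8.88 each, Cnga2 at 4.89, Ano2 at 2.23, Cnga4 at 1.41 and Cngb1 at 0.973 CPM per kb. Over the 3 libraries each gene's range overlapped that of the next in this order, except between Adcy3 and Rtp1 and between Cnga2 and Ano2. The order depends on the length used. Per kilobase of merged GENCODE exon bases, an alternative chosen after seeing the data, Omp was still the highest at 32.2, but Adcy3 came next at 17.5, followed by Gng13 at 12.6, Stoml3 at 9.04 and Rtp1 at 8.88, and Gnal fell to 4.58, below Cnga2 at 4.85. By either length Cnga2 was the most abundant of the channel subunits. In BALB/c wild type libraries Adcy3 led at 15.9 CPM per kb and Gnal came next at 1.27.

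Within the 4 high libraries the genes kept a nearly fixed proportion to Omp although Omp itself ranged from 36.1 to 99.97 CPM. The log2 ratio of Rtp1 to Omp, per kilobase, was -1.92, -1.81, -1.94 and -1.97 in replicates 1, 2, 3 and 4. For Gnal the ratios were -1.92, -1.84, -1.91 and -1.94, and for Stoml3 they were -0.77, -0.94, -0.83 and -0.93. Replicate 4 was thus like the wild type libraries in proportion for these genes, at a lower level. For Cnga4 its ratio was -5.64 against -4.65, -4.48 and -4.46 in wild type, and for Gng13 -0.88 against -0.51, -0.47 and -0.49, so these 2 were lower relative to Omp in replicate 4 than in wild type. Smaller departures in the same direction were seen for Cnga2, at -2.97 against -2.79, -2.64 and -2.80, and for Ano2, at -4.05 against -3.98, -3.73 and -3.89. Adcy3 had no fixed proportion, with log2 ratios of -1.45, -0.24, -0.59 and 0.54 in these 4 libraries and 5.58 to 6.86 in the others.

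**Figure D3:**
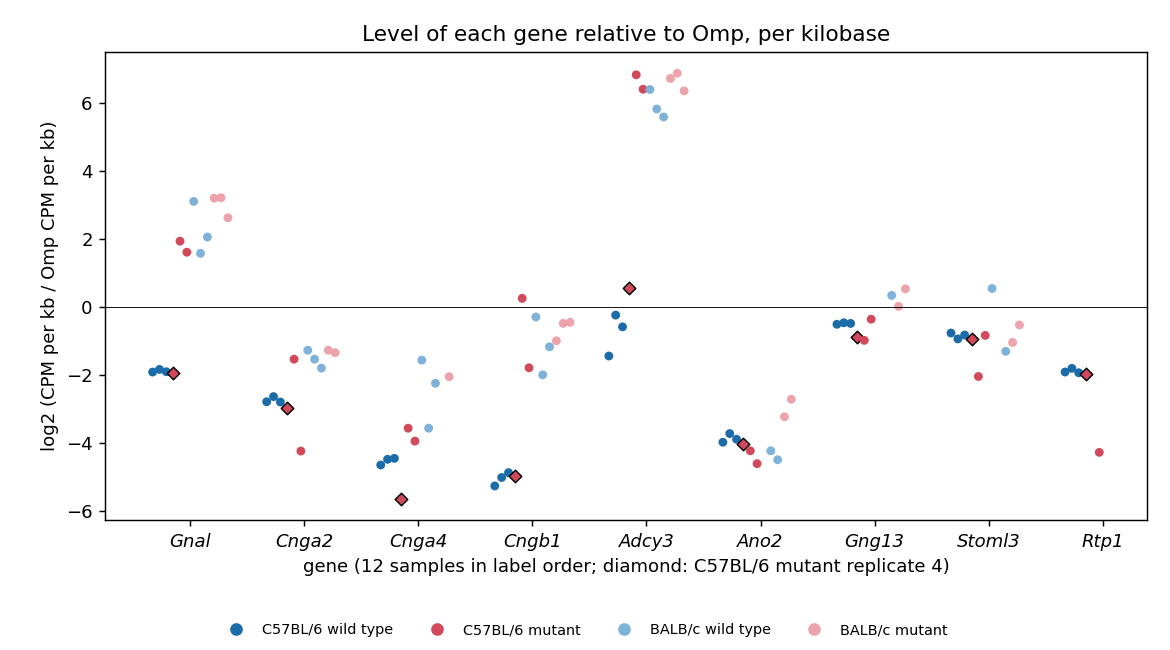
Log2 ratio of each gene's CPM per kb to that of Omp (vertical axis) for 9 genes (horizontal axis), 1 point per sample coloured by group, with C57BL/6 mutant replicate 4 as a diamond and samples with 0 counts left out. The 4 high libraries lie close together for Gnal, Ano2, Stoml3 and Rtp1, while Adcy3 runs from -1.45 to 6.86.

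Across the 12 samples, Pearson's r of log2 CPM between a gene and the mean of the other 9 was 0.933 for Cngb1 to 0.991 for Omp and Rtp1, and 0.167 for Adcy3. The samples fall into 4 high and 8 low libraries, so r mainly describes that split, and it is given as a description. The 10 named genes outside the list whose levels were most like the mean of the 10 were Dpysl5, Foxi1, Agr2, Slc17a6, Sp8, Otx2, Ugt2a2, Sult1d1, Fezf1 and Calb2, with r of 0.994 to 0.995 over the 12 samples. Olfactory receptor and unnamed genes were left out of that ranking. Sp8, for one, had 17.2, 6.87, 8.15 and 5.02 CPM in replicates 1 to 4 and 0 in the 8 others. The ranking was not stable: with the 6 C57BL/6 samples alone it shared 1 of 10 genes, and by Spearman's rho 0 of 10.

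Mutant and wild type C57BL/6 mice were compared to ask what the allele changed in that strain. By edgeR's quasi-likelihood test on all genes, with Benjamini-Hochberg adjustment, 3 of the 10 genes were lower in mutants (Gnal, Cnga4 and Cngb1) and 1 was higher (Adcy3). Over all 16190 genes tested, 12.6% were called lower and 11.3% higher, and since the 10 genes were selected on such values the counts are a description. Gnal fell by 2.05 (log2; SE 0.508; adjusted p 0.0150), Cnga4 by 3.40 (SE 0.877, adjusted p 0.0176) and Cngb1 by 1.66 (SE 0.501, adjusted p 0.0331). Adcy3 rose by 0.51 (SE 0.0691, adjusted p 0.000808). Osteoblast markers moved with it: 4 of 6 (Bglap, Sp7, Alpl and Dmp1) were called higher in C57BL/6 mutants, with a median log2 change of 0.555 over the 6, and their part in the result was not tested. The 6 summed to 116600, 133600 and 141400 CPM in mutant replicates 4, 5 and 6 and to 61690, 109100 and 107700 CPM in wild type replicates 1, 2 and 3, and none was at 0. Wild type replicate 1 thus stood apart as the lowest, and it was also the highest library for 9 of the 10 genes, all but Adcy3. Omp was at -2.46 on the log2 scale, with a standard error of 1.00 and an adjusted p of 0.0919, and the other 5 genes had adjusted p-values of 0.0763 to 0.225. The median log2 fold change of the 10 was -2.57, against -0.004 over all genes.

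Without C57BL/6 mutant replicate 4 the same test called all 10 genes, 9 lower and Adcy3 higher, against 16.5% lower and 12.8% higher of the 16500 genes then tested. Omp then stood at a log2 fold change of -6.87 with a standard error of 0.370 (adjusted p 8.34e-07) and Gnal of -3.22 (SE 0.290, adjusted p 1.40e-05). Genes whose 2 remaining mutant libraries lie at or under 3 read pairs, such as Stoml3 with 1 and 3 pairs, have fitted values that depend on the prior count, also where they are plotted. Adcy3 was little moved, at 0.55 (SE 0.0761, adjusted p 0.000241). Leaving out C57BL/6 wild type replicate 1 or mutant replicate 6 instead left only Adcy3 called, and the share of all genes called in those fits is not given here.

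**Figure D4:**
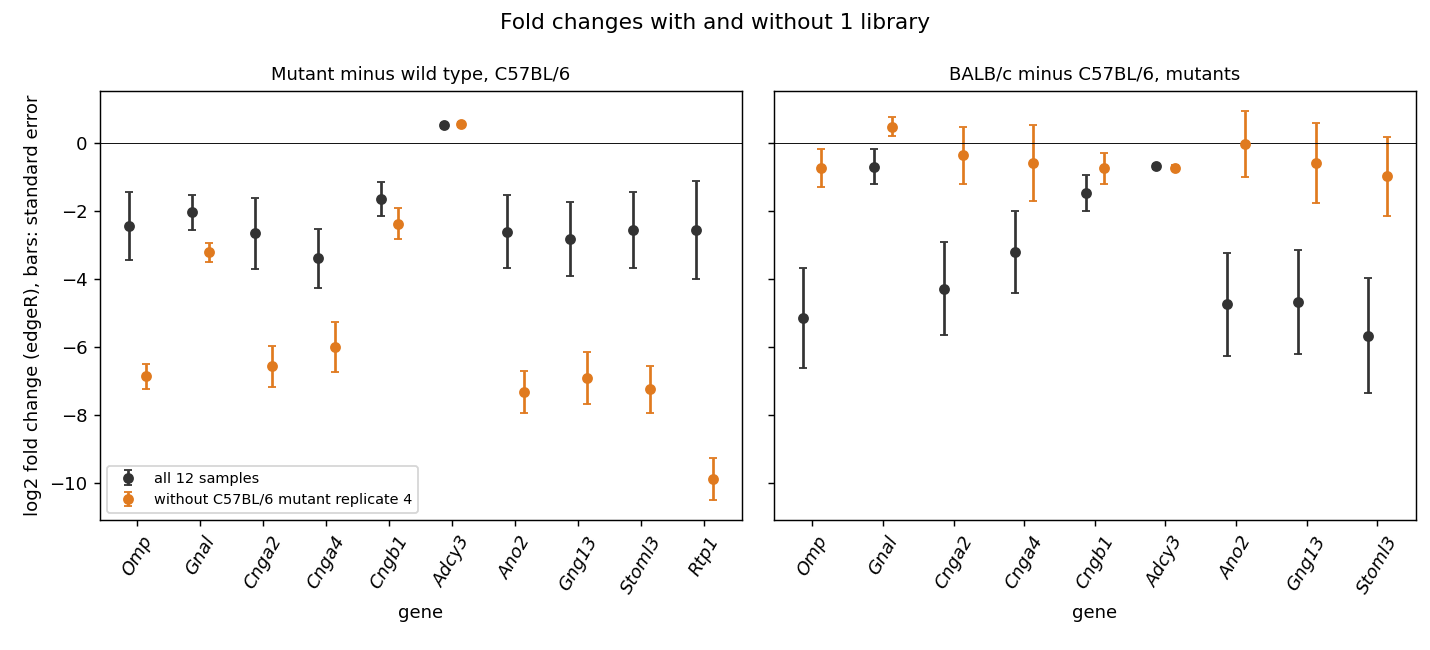
Log2 fold changes from edgeR with their standard errors (vertical axis) for each gene, for mutant minus wild type in C57BL/6 (left) and BALB/c minus C57BL/6 in mutants (right, without Rtp1, which had 0 counts in BALB/c), with all 12 samples and without C57BL/6 mutant replicate 4. Omp moves from -2.46 to -6.87 on the left and from -5.16 to -0.74 on the right, while Adcy3 stays near its value.

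Between mutants and wild type on the BALB/c background, 0 of the 10 genes were called by edgeR, and 0 had an unadjusted p under 0.05. Limma-voom called 0, and DESeq2 called 0 of the 8 to which it gave an adjusted p. Of all genes 0.136% were called by edgeR in either direction. Adcy3 had a log2 fold change of 0.04 (SE 0.0694) and Gnal of 0.05 (SE 0.533). For the genes at or near the floor in both BALB/c groups, a difference between genotypes was not detectable at this depth.

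Between strains in wild type mice, all 10 genes were lower in BALB/c, against 25.6% of all genes. Counted as read pairs over the 3 libraries, Omp was 121 times higher in C57BL/6 (3825 against 27 pairs, exact 95% interval 83.1 to 184, counting error only). Ano2 was 206 times higher (482 against 2 pairs, 56.7 to 1710) and Gng13 153 times (537 against 3 pairs, 52.1 to 744), both imprecise because so few pairs lie on the BALB/c side. Gnal was 7.17 times higher (6.40 to 8.05) and Cngb1 8.07 times (5.77 to 11.6), and Adcy3 differed least, at -0.23 on the log2 scale (SE 0.0694, edgeR adjusted p 0.0182). The median log2 fold change of the 10 was -6.31, also with Rtp1 set at its bound, against -0.001 over all genes. DESeq2 called all 8 genes to which it gave an adjusted p, and Cnga2 and Ano2 had none. The strain call on Adcy3 was lost without C57BL/6 wild type replicate 2 (-0.18, edgeR adjusted p 0.0771) and without BALB/c wild type replicate 13 (-0.19, adjusted p 0.074).

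In mutants, 7 of the 10 genes were lower in BALB/c (all but Gnal, Cnga4 and Rtp1) and 0 were higher, against 18.9% lower and 18% higher of all genes. Omp was at -5.16 on the log2 scale, with a standard error of 1.47 and an edgeR adjusted p of 0.0167. Adcy3 was at -0.70 (SE 0.0693, adjusted p 2.01e-05). Without C57BL/6 mutant replicate 4 only Adcy3 was called lower, at -0.73 (SE 0.0759, adjusted p 2.67e-05), against 16.3% of all genes, and Omp was at -0.74 (SE 0.553, adjusted p 0.332). Leaving out BALB/c mutant replicate 16, 17 or 18 instead left 1, 2 and 2 genes called, and the share of all genes called in those fits is not given here. Limma-voom called 1 of the 10 genes here, and edgeR fitted on only these groups called 2. The comparisons between mutants share samples with those above.

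The interaction, the genotype effect in BALB/c minus that in C57BL/6, was called for Adcy3 alone, at -0.47 (SE 0.0979, edgeR adjusted p 0.0157), against 4.58% of all genes lower and 5.46% higher. Gnal had the next smallest adjusted p, with 2.10 (SE 0.731, adjusted p 0.0842). Without C57BL/6 mutant replicate 4, 8 genes were called, 7 of them higher, against 11.5% of all genes higher. Omp then had an interaction of 6.15 (SE 0.727, adjusted p 0.000272). With libraries scaled by total counts, the interaction of Adcy3 was -0.24 (adjusted p 0.0897). Of the 6 osteoblast markers, 3 (Bglap, Sp7 and Dmp1) were also called lower for the interaction, with a median of -0.616 over the 6, and their part in the result was not tested.

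Other genes of the cascade were taken from a list of 12 partners, of which 11 were in the table and tested. In C57BL/6, 8 were lower in mutants (12.6% of all genes were) and 1 was higher (11.3% of all genes), in BALB/c 0 changed in mutants (edgeR, DESeq2 and limma-voom, and 0 at an unadjusted p under 0.05), and between wild types 8 were lower in BALB/c, against 25.6% of all genes. Between mutants of the strains 3 were lower in BALB/c and 1 was higher, against 18.9% and 18% of all genes. The interaction was called higher for 2, Ric8b and Pde1c, against 5.46%. The median log2 fold change in C57BL/6 mutants was -0.44, against -2.57 for the 10 genes. Without C57BL/6 mutant replicate 4, 7 were lower and 1 higher in C57BL/6 mutants, against 16.5% and 12.8% of all genes. Between mutants 2 were then lower and 1 higher in BALB/c, against 16.3% in each direction, and the interaction was called higher for 4 (Ric8b, Pde1c, Slc24a4 and Arrb2), against 11.5%. The count of 9 in C57BL/6 was 4 without wild type replicate 1 and 4 without mutant replicate 6. The interaction count of 2 was 0 when replicate 1, 5, 6, 13, 15, 16, 17 or 18 was left out, 1 without replicate 2 or 14, 3 without replicate 3 and 4 without replicate 4. Pde1c, the phosphodiesterase that degrades cyclic AMP in olfactory cilia, had 12.3, 6.93, 8.79 and 4.29 CPM in replicates 1 to 4, and 1.29 to 2.58 CPM in the 8 low libraries. It fell by 2.01 in C57BL/6 mutants (log2, SE 0.424, edgeR adjusted p 0.00735), and by 2.82 without replicate 4 (SE 0.311, adjusted p 5.03e-05). Slc24a4, the exchanger that removes calcium from the cilia, fell by 2.06 (SE 0.551, adjusted p 0.0206), and by 2.80 without replicate 4 (SE 0.556, adjusted p 0.00264).
Rtp2, the second receptor chaperone, had 15.95, 8.91, 8.69 and 4.70 CPM in replicates 1 to 4 and 0 to 0.162 CPM in the others. In C57BL/6 mutants it was at -2.77 on the log2 scale (SE 1.18, adjusted p 0.111), and without replicate 4 at -7.12 (SE 0.729, adjusted p 7.10e-05), a fitted value that depends on the prior count because the 2 mutant libraries left had at most 0.162 CPM. Gnb1, a G protein beta subunit made by many cell types, had 235.5 to 336.1 CPM in the 12 libraries and fell by 0.30 (SE 0.0654, adjusted p 0.00790). Adrbk2, a receptor kinase, was the partner that rose, by 0.47 (SE 0.0979, adjusted p 0.00676). Without replicate 4 these 2 changes were -0.33 for Gnb1 (SE 0.0781, adjusted p 0.00796) and 0.53 for Adrbk2 (SE 0.105, adjusted p 0.00264).

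Markers of the cells that surround olfactory neurons moved with these genes, and their part in the results was not tested. Of 6 other genes of mature olfactory neurons, all 6 were present in the 4 high libraries, summing to 26.3 to 87.5 CPM, and the sum was 1.98 to 3.16 CPM in the 8 low ones. The 7 genes of immature neurons and progenitors summed to 63.2 to 195.9 CPM in the high libraries and 9.17 to 17.2 in the low ones. Neurog1, a proneural factor, was at 0 in all 8 low libraries. Supporting (sustentacular) cells gave the same split, with 6 markers summing to 193.2 to 583.1 against 2.23 to 5.21 CPM, and their cytochrome Cyp2g1 at 0 in 5 BALB/c libraries. Respiratory secretory markers (6 genes) summed to 58.2 to 325.2 CPM against 0.485 to 1.52, motile cilia markers (4 of 6 in the table) to 8.40 to 26.5 against 3.49 to 5.88, and basal epithelial markers (4 genes) to 4.65 to 197.3 against 0.0492 to 0.560 CPM. Not every gene followed its list. Scgb1a1 was at 0 in every library, and the high and low ranges overlapped for Gng8, Bpifb1, Rsph1 and Krt15. Bpifa1, at 39.4 to 286.7 CPM in the high libraries, carried most of the secretory sum. The basal sum of 197.3 CPM was that of C57BL/6 wild type replicate 2, against at most 18.3 CPM in any other library.
Of the 1123 olfactory receptor genes in the table, 304 to 416 had a read in the 4 high libraries and 16 to 33 in the others. Their summed level differed less, at 79.4 to 174.7 CPM in the high and 26.5 to 36.6 CPM in the low libraries. Among 7 transcription factors of olfactory neurons, Lhx2 had 58.3, 24.8, 30.5 and 17.4 CPM in replicates 1 to 4 and 0.0492 to 0.431 CPM in the others, while Ldb1, made in many tissues, had 117.1 to 147.9 CPM in all 12. In C57BL/6 mutants 5 of these 7 were called lower and 0 higher, against 12.6% of all genes lower. Without replicate 4, 6 were lower and 0 higher, against 16.5% lower.
Lists whose sums did not split the libraries this way were those of vomeronasal neurons (394.5 to 444.7 CPM in the 4 high libraries, 441.5 to 563.8 in the 8 low ones), chemosensory and taste cells (73.3 to 85.9 against 48.0 to 99.04) and guanylate cyclase olfactory neurons (32.5 to 40.1 against 37.3 to 52.9). These sums are carried by genes that other tissues also make. Gnai2 split the libraries the other way, at 289.7 to 370.9 CPM in the 4 high and 401.1 to 523.5 in the 8 low ones. Itpr3 had 34.9 to 70.6 CPM in the 12 libraries. In each of the 3 lists 1 gene was higher in all 4 high libraries than in any low one. Gnao1, a G protein subunit of vomeronasal and other neurons, had 40.4 to 73.9 CPM in the high libraries and 19.3 to 24.8 in the low ones, and Pou2f3, a tuft cell factor, 0.587 to 1.51 against 0 to 0.129 CPM. Of the last list, Pde2a had 30.6 to 52.8 CPM in the 12 libraries, and Gucy2d, the defining gene, had 0.662 to 1.92 CPM in the high libraries and 0 to 0.247 in the low ones. Brain neuron markers (6 genes) summed to 7.41 to 14.1 CPM in the high and 4.45 to 5.98 CPM in the low libraries. Of these 6, Gad2 alone was apart, at 2.40 to 7.07 against 0 to 0.582 CPM, and the ranges of the other 5 overlapped. Skeletal muscle, glial and erythroid lists followed other samples: muscle markers ran from 1.89 to 397.7 CPM and glial markers from 17.8 to 421.1 CPM, both highest in BALB/c mutant replicate 16, and erythroid markers from 45.1 CPM in C57BL/6 mutant replicate 4 to 446.0 CPM in BALB/c mutant replicate 16.

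**Figure D5:**
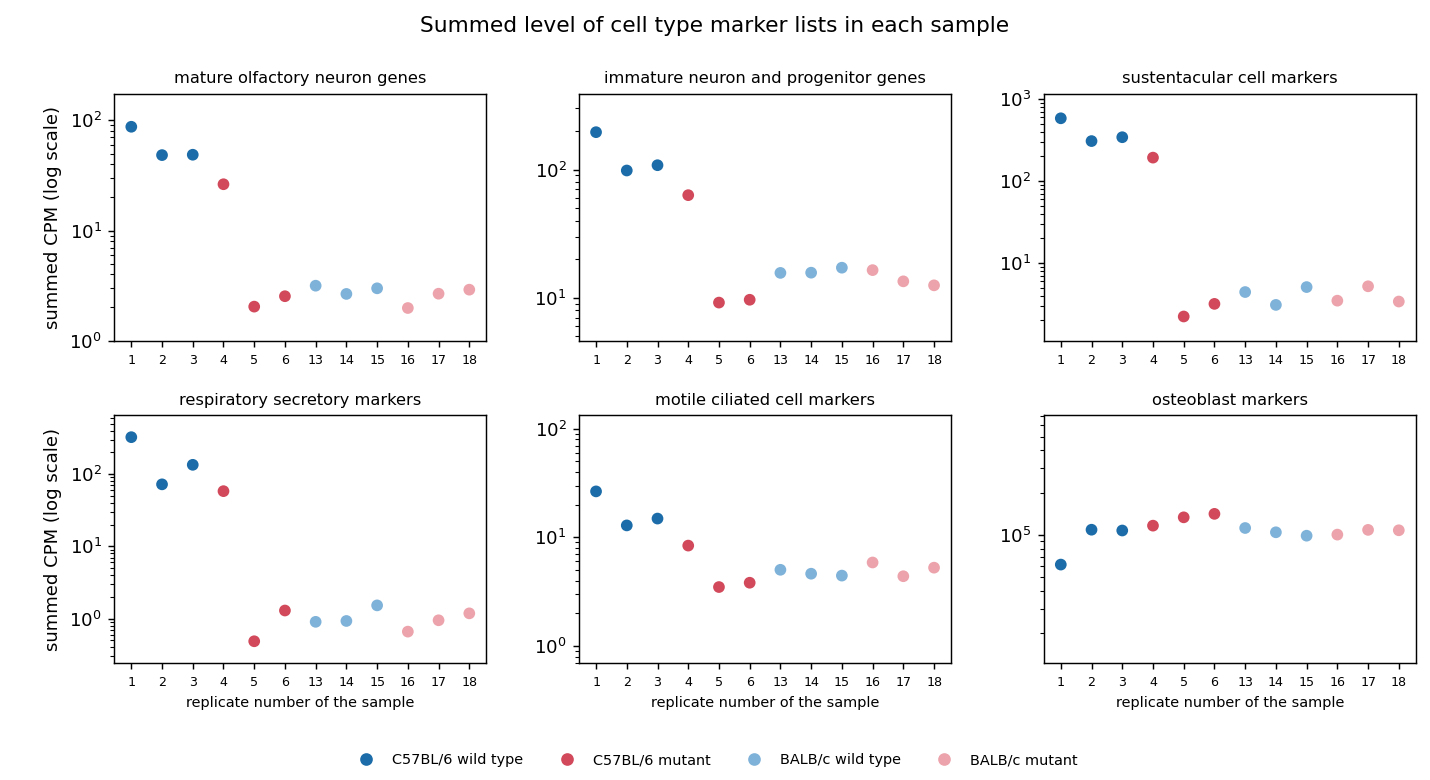
Summed CPM (vertical axis, log scale) of 6 marker lists in each sample, by replicate number (horizontal axis) and coloured by group. In 5 lists replicates 1 to 4 lie above the 8 others, and osteoblast markers stay between 61690 and 141400 CPM.

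In the authors' deposited table, Omp had a log2 fold change of -1.05 between C57BL/6 mutants and wild type (q 0.000107), and Adcy3 of 0.49 (q 0.000743). That table gives no q for Cnga2 and Rtp1 here. Its fold changes cannot be set against the edgeR values above as like measures, since the settings are not given in the sources used here. For C57BL/6 over BALB/c wild type it gives 1.62 for Omp and 0.40 for Rtp1, a gene with 0 counts in BALB/c. For Adcy3 it gives 0.23, the size that edgeR gave. By the authors' deposited table, 7 of the 10 genes were lower and 1 (Adcy3) higher in C57BL/6 mutants at a q under 0.05, against 13.8% lower and 11.5% higher of all genes with a q there. Between BALB/c mutants and wild type it was 0, against 1.43% in either direction. By the authors' deposited table, 7 were higher in C57BL/6 than in BALB/c wild type, against 24.7%, and 3 were higher in C57BL/6 than in BALB/c mutants, against 18.4%.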

How the data were processed

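Messenger RNA libraries from 12 samples in 4 groups were analysed. The authors deposited raw counts per gene, RPKM values and coding lengths, and a table of their own comparisons with log2 fold changes and p-values and q-values. Per the submitters' processing notes, the tools were bcl2fastq, TopHat2 2.0.6, HTSeq and DESeq2, with the mm10 build, and their settings are not given in the sources used here. The deposited RPKM values were not used. Of the value columns, 0 belonged to no sample.

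Counts were analysed with edgeR 4.0.16 in R 4.3.3: low counts removed by filterByExpr (at least 10, in total at least 15), TMM scaling, and a quasi-likelihood model with a mean per group on all 12 samples. A gene was called at a Benjamini-Hochberg adjusted p under 0.05 over all 16190 genes tested. All 10 members passed the filter. Those at or under 3 read pairs in BALB/c passed it through the C57BL/6 groups in which they are high. Adcy3 and Gnal, with at least 1896 and 164 counts in each BALB/c library, also passed through the BALB/c groups. Standard errors are the size of the log2 value divided by the square root of F. Levels are CPM on TMM-scaled libraries, and log2 CPM used a prior count of 2. The fitting step was tested on simulated counts.

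Alternatives were DESeq2 1.42.0, limma-voom (limma 3.58.1), RLE and total-count scaling, no filter, counts halved, only the groups compared, and 12 fits leaving out 1 sample each. Levels per kb of GENCODE exon bases were added after seeing the data. Members, marker lists and partners were chosen with earlier results of these data known. The text names all members, genes of the neuron and partner lists, markers that illustrate a list, and the 10 genes with the highest correlation to the members' mean. No paired analysis was possible because the groups share no replicate numbers. Gene coordinates are those of the deposited table, and exon overlaps come from GENCODE vM21 (GRCm38).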

Additional observations from a re-analysis of the deposited data

Results flagged for a closer look

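The genotype effect on Adcy3 differed between the strains by a test of the difference itself: the effect in BALB/c minus that in C57BL/6 was -0.47 on the log2 scale (SE 0.0979, edgeR adjusted p 0.0157). Adcy3 was higher in all 3 C57BL/6 mutant libraries than in any C57BL/6 wild type library, and the BALB/c groups overlapped. Across the 12 fits that leave out 1 sample, the interaction stayed between -0.51 and -0.41. With libraries scaled by total counts it was -0.24 (adjusted p 0.0897), past the threshold no longer. Of 6 osteoblast markers, 4 were called higher in C57BL/6 mutants and 3 lower for the interaction, and their part in the result was not tested. Strain and flow cell cannot be told apart for this difference.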

How the results depend on the processing

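Of 666 log2 fold changes of the 10 genes with an adjusted p under the alternatives, 580 kept their sign and their side of the threshold, 46 lost the call, 29 gained one and 11 changed sign, 0 of these called with all samples. In BALB/c mutants against wild type, limma-voom gave -0.13 for Ano2 and 0.20 for Gng13. There, with 1 sample left out, Ano2 ran from -0.58 to 0.76, Gng13 from -1.11 to 3.99, Gnal from -0.15 to 0.22 and Cngb1 from -0.48 to 0.073. Likewise Gnal between mutants ran from -1.08 to 0.47, and the interaction of Cnga4 from -1.86 to 4.14. In C57BL/6 mutants against wild type, 4 of the 10 genes were called, 10 by limma-voom, 1 with only these 2 groups fitted, and 1 to 10 when 1 sample was left out. Between mutants of the strains 7 were called, 1 by limma-voom, 2 with only these groups, and 1 to 9 with a sample left out. For the interaction 1 was called, 0 with total-count scaling, and 1 to 8 with a sample left out. Of the 11 partners, 9 were called in C57BL/6 mutants, 2 with only these groups, and 4 to 9 with a sample left out. The interaction was called for 2 partners, 4 by DESeq2, 4 with total-count scaling, and 0 to 4 with a sample left out. The counts of 10 and 8 came without C57BL/6 mutant replicate 4. Among the alternatives, the share of all genes called is given above only for the fit without replicate 4. For the others, the counts cannot be set against such a share. Total-count scaling shifted the median of all genes by -0.196 in C57BL/6 mutants and by 0.231 for the interaction. The inner Olf-1/EBF core was in 5 promoter windows against 0 for the longer core, which contains it. The other causes were not tested. Levels under 3 read pairs are not resolved at this depth. Without replicate 4, adjusted p-values rest on 2 C57BL/6 mutant samples.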
